A study of Mus musculus with 51 samples.

Results

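Death receptors, the caspase-8 module and the cellular inhibitors of apoptosis were followed at the mRNA level through every tumor and cell group of a bulk RNA-seq series on Uba1, the main ubiquitin-activating (E1) enzyme. The 9 members were taken by gene symbol from the 40077 genes of the deposited table: the receptors Fas, Tnfrsf10b and Tnfrsf1a, the adaptor Fadd, the protease Casp8 and its regulator Cflar, the kinase Ripk1, and the cIAP genes Birc2 and Birc3. Each symbol matched 1 gene. A value was available for each in all 51 libraries, which came from 35 mouse tumors and 16 cultures in 16 groups.

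As background, death receptors are members of the TNF receptor superfamily that carry a cytoplasmic death domain. Fas and the TRAIL receptor recruit FADD and procaspase-8 directly, and caspase-8 then activates the effector caspases, whereas c-FLIP, the Cflar product, competes with procaspase-8 in the same complex. TNFR1, the Tnfrsf1a product, first assembles a membrane complex with RIPK1 and the ubiquitin ligases cIAP1 and cIAP2, encoded by Birc2 and Birc3, and ubiquitin chains on RIPK1 hold that complex in an NF-κB-activating, survival-promoting state. UBA1 supplies activated ubiquitin to these ligases as to most others in the cell.

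B16-BL6 is a mouse melanoma line, and its tumors carried a control guide (sgNC, genotype WT, n = 3) or a guide against Uba1 (sgUba1, Uba1-depletion, n = 4). Myc-CaP is a mouse prostate cancer line driven by a Myc transgene, and its tumors formed 3 experiments. These set sgNC (n = 3) against sgUba1 (n = 7), the empty vector EV (n = 3) against Uba1_OE (Uba1-overexpression, n = 4), and vehicle (Veh, n = 6) against TAK-243 (n = 5), an inhibitor of UBA1, both in WT tumors. Myc-CaP cells in culture formed an inhibitor experiment in WT cells (control, 50 nM TAK-243, control with IFN-γ and TAK-243 with IFN-γ) and a guide experiment (sgNC and sgUba1, each with PBS or IFN-γ), with n = 2 in each of the 8 groups. According to the study's methods, the tumors grew in young adult mice, sgUba1 lines were grown from single cells and kept part of their Uba1, and overexpression was driven by a CMV promoter on a lentivirus. The labels do not say which guide or subline a library carries or whether replicates came from separate cultures, so p-values in cells measure the spread between these libraries, which may be technical. By the study's methods cells were injected into both flanks of a mouse, and the labels do not tie tumors to animals, so tumors of a group may share a mouse and p-values over tumors may be too small.

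Total counts per library lay between 8652097 in an EV tumor and 38032395 in an sgNC culture with IFN-γ. Precision was lowest for Fas, followed by Birc3 in cells and by Fadd in Myc-CaP tumors. Expression is given as CPM, the counts scaled to a common library size with TMM factors, and as TPM, which is scaled for length, where genes are compared with each other. Uba1 itself checked the labels. It stood at 410, 455 and 414 CPM in the B16-BL6 sgNC tumors and 208, 220, 228 and 247 CPM in the sgUba1 tumors, and at 278 to 310 CPM in EV tumors and 631 to 747 CPM in OE tumors. In sgNC cells it lay between 526 and 600 CPM and in sgUba1 cells between 269 and 295 CPM. In the Myc-CaP tumors labelled sgUba1, replicates 1 to 3 had 197, 202 and 211 CPM. Replicates 4 to 7 had 373, 361, 368 and 383 CPM, above the 320 to 337 CPM of the sgNC tumors. Uba1 mRNA was thus retained in these 4 libraries. The study judged depletion by sequencing and immunoblot, and UBA1 protein was not measured here, so mRNA alone does not decide whether they were depleted. Melanoma markers summed to 12484 to 16313 CPM in the B16-BL6 tumors and to at most 32.5 CPM elsewhere, and prostate epithelial markers to at most 3.13 CPM in B16-BL6 and at least 1288 CPM in every Myc-CaP sample.

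The members lie on 7 chromosomes (GENCODE M21, build GRCm38, mm10), and 2 pairs are neighbours. Casp8 (chr1:58795374-58847503) and Cflar (chr1:58711508-58758884) both lie on the plus strand with a gap of 36489 bases. Birc2 (chr9:7818227-7837064) and Birc3 (chr9:7848699-7873186) both lie on the minus strand, 11634 bases apart. The other members are Fas (chr19:34290666-34327772, plus), Tnfrsf10b (chr14:69767472-69784411, plus), Tnfrsf1a (chr6:125349362-125362484, plus), Fadd (chr7:144577318-144582463, minus) and Ripk1 (chr13:34002363-34037147, plus). Birc2 and Birc3 are paralogs, and 93 of their 31-base words were shared, which is 2.03% of those of Birc2 and 1.84% of those of Birc3, so few reads could be split between them. Ripk1 overlaps Serpinb6a and the pseudogene Gm17083 on the opposite strand, and whether the counting used strand is not given in the sources used here.

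As several arms received IFN-γ, the RefSeq promoter windows (GRCm38.p6, 250 bases before to 50 after a start) were searched on both strands for the GAS motif TTCNNNGAA and the ISRE motif GAAANNGAAA. Windows were matched for 8 of the 9 members, all but Tnfrsf10b, with 2 windows each for Ripk1 and Birc2. The matches are printed 5′ to 3′ on the plus strand, with the motif in capitals, to show which members carry these letters.
Tnfrsf1a, GAS, chr6:125349473-125349495: gcttccTTCCGTGAAattgacaa
Fas, GAS, chr19:34290558-34290582: aaagcgatTTCTGGGAAgacctgaa
Ripk1, GAS, chr13:34002758-34002782: aagctggtTTCCCGGAAggggcgga
Ripk1, GAS, chr13:34002855-34002879: ttcaaacgTTCCCGGAAatcgaaaa
Ripk1, ISRE, chr13:34002861-34002886: cgttcccgGAAATCGAAAagcgcgga
Cflar, ISRE, chr1:58711489-58711514: acgtctgcTTTCGGTTTCtgggcgtc
The ISRE match of Ripk1 overlaps its second GAS match, and the Cflar match reads on the minus strand. GAS letters were present in 8.3% and ISRE letters in 3.44% of all 32851 windows. The CHOP and ATF4 element TGATGCAA, searched on both strands, was in no member's window and in 0.89% of all windows. The κB motif of NF-κB was searched on a single strand only. There it was in no member's window and in 5.89% of all windows, and the opposite strand was not searched for it. These matches are letters only, and nothing was measured at these sites.

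Levels set the members apart by model and by growth in culture or in the mouse. On the TPM scale, Tnfrsf1a was the receptor with the highest level in tumors, at 63.0 to 77.6 TPM in B16-BL6 (n = 7) and 37.8 to 68.8 TPM in Myc-CaP tumors (n = 28). Tnfrsf10b, the mouse TRAIL receptor, ran the other way between models, at 8.14 to 12.8 TPM in B16-BL6 and 16.4 to 23.9 TPM in Myc-CaP tumors. Fas was near the detection limit in culture, since 8 of the 16 cell libraries held 0 counts and 11 held at most 3 counts, the floor used here. None of the 35 tumors was at 0, and 5 held at most 3 counts. The highest level in tumors was 2.26 CPM (65 counts), in 1 TAK-243 tumor that stood apart from its group, against 0.859 CPM (14 counts) in cells.

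Cflar, the caspase-8 regulator, differed most clearly by kind of sample when set against Casp8. It lay at 57.1 to 87.4 TPM in B16-BL6 tumors, 16.5 to 33.5 TPM in Myc-CaP tumors and 10.1 to 19.7 TPM in Myc-CaP cells, while Casp8 lay at 24.8 to 32.2, 15.6 to 27.6 and 20.6 to 43.6 TPM. The ratio of Cflar to Casp8 was thus 1.97 to 3.21 in B16-BL6 tumors, 0.596 to 1.69 in Myc-CaP tumors and 0.380 to 0.520 in Myc-CaP cells, with no overlap among the 3 kinds of sample. Fadd lay at 8.41 to 11.3 TPM in B16-BL6 and 2.82 to 4.77 TPM in Myc-CaP tumors. Birc3 was the lower of the cIAP genes in all groups, and its level in cells (1.65 to 3.09 TPM) lay below that in every tumor (3.90 to 11.8 TPM). Birc2 reached 15.9 to 41.1 TPM in Myc-CaP tumors, 12.8 to 17.5 TPM in B16-BL6 and 9.34 to 19.4 TPM in cells. Ripk1 overlapped between the tumor models, at 12.5 to 15.2 TPM in B16-BL6 and 14.0 to 22.1 TPM in Myc-CaP. Ordered by mean TPM, Tnfrsf10b ran from the B16-BL6 sgUba1 tumors (8.95 TPM) and sgNC tumors (12.0 TPM) to the cells with TAK-243 (50.9 TPM) and with TAK-243 and IFN-γ (51.8 TPM), and the ranges of neighbours in that order were apart at 4 of 15 steps. For the other members, neighbours were apart at 0 (Fas, Birc2) to 3 (Tnfrsf1a, Cflar) of 15 steps. How often groups or kinds of sample were apart over all genes was not counted. Model, experiment and host tissue change together between these kinds of sample and cannot be told apart, and in bulk RNA fewer cells of a type cannot be told from less RNA per cell.

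**Figure D1:**
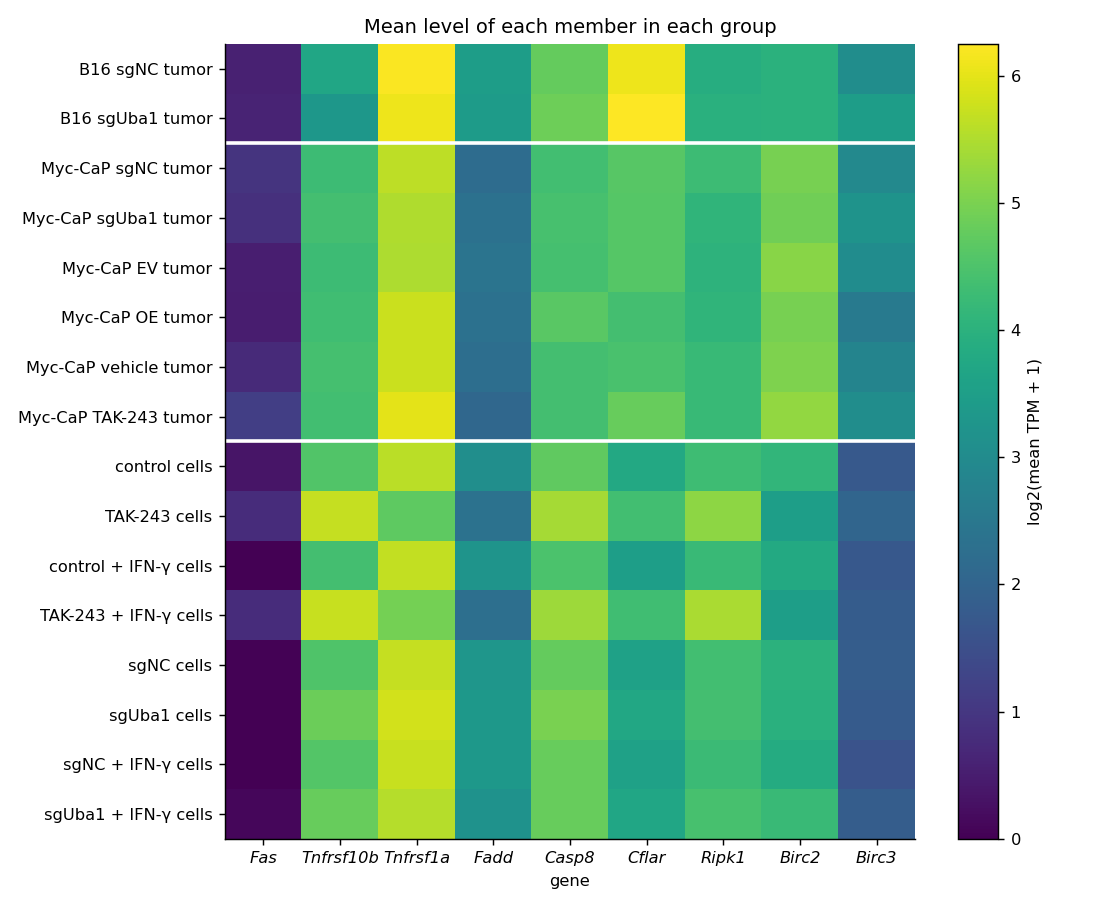
Mean level of each member in each of the 16 groups, as log2(mean TPM + 1); rows are groups, with 2 B16-BL6, 6 Myc-CaP tumor and 8 Myc-CaP cell groups separated by white lines, and columns are members. Cflar is highest in the B16-BL6 rows, Fas is the lowest member, and Birc3 is lower in the cell rows than in the tumor rows.

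In cultured cells, TAK-243 changed 7 of the 9 members at an adjusted p under 0.05 in edgeR's quasi-likelihood test. Tnfrsf10b, Casp8, Cflar and Ripk1 rose, Tnfrsf1a, Fadd and Birc2 fell, and Birc3 and Fas did not pass. The response of the transcriptome was broad, with 32.3% of the 14551 genes tested called higher and 34% called lower, so the number of members called is read against that share. The median log2 difference of the members was 0.69, beside 0.03 over all genes tested.

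Tnfrsf10b, whose product binds TRAIL, stood at 49.2 and 43.1 CPM in the controls and at 105 and 108 CPM with TAK-243. Both treated libraries lay above both controls, and the log2 difference was 1.20 ± 0.058 (SE, adjusted p = 1.99e-17, edgeR). How many of all genes separated the groups was not counted, here or in any later comparison. Tnfrsf1a, the TNF receptor, moved the other way, from 65.0 and 63.2 CPM to 31.5 and 35.0 CPM. Its log2 difference was −0.95 ± 0.072 (adjusted p = 8.46e-13, edgeR). The TPM ratio of Tnfrsf1a to Tnfrsf10b accordingly lay at 0.472 to 0.619 in the 4 libraries with TAK-243 and at 1.68 to 2.68 in the other 12 cell libraries.

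Fas had 5 and 2 counts in the controls and 14 and 3 counts with TAK-243 (0.319 and 0.125 against 0.859 and 0.241 CPM). These overlap, and the difference was not detectable at this depth (adjusted p = 0.129, edgeR).

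Within the death-inducing complex, the adaptor fell while the protease and its regulator rose. Fadd stood at 18.6 and 19.9 CPM in the controls and 10.6 and 10.9 CPM with TAK-243, a log2 difference of −0.84 ± 0.112 (adjusted p = 1.15e-07, edgeR). Casp8 stood at 32.7 and 32.3 CPM and then at 58.5 and 54.9 CPM, a difference of 0.81 ± 0.073 (adjusted p = 4.45e-11, edgeR). The treated libraries were separate from the controls for both genes. Cflar stood at 40.6 and 40.0 CPM and then at 62.9 and 67.6 CPM, a difference of 0.69 ± 0.065 (adjusted p = 9.7e-11, edgeR). Casp8 and Cflar, neighbours on chromosome 1,, thus both rose. Their TPM ratio, Cflar to Casp8, stood at 0.517 and 0.479 in the controls and 0.451 and 0.477 with TAK-243.

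In the TNFR1 arm, the kinase Ripk1 stood at 43.9 and 48.3 CPM in the controls and 86.6 and 86.3 CPM with TAK-243, a log2 difference of 0.91 ± 0.059 (adjusted p = 2.63e-14, edgeR). Birc2 (cIAP1) fell from 25.3 and 27.7 CPM to 15.6 and 16.3 CPM, by 0.73 ± 0.098 on the log2 scale (adjusted p = 1.02e-07, edgeR). The treated and control libraries did not overlap for either gene, and the share of all genes for which this held was not counted. Birc3 (cIAP2) stood at 4.15 and 4.62 CPM in the controls and 5.83 and 5.86 CPM with TAK-243, and its difference of 0.41 ± 0.230 did not pass (adjusted p = 0.116, edgeR).

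**Figure D2:**
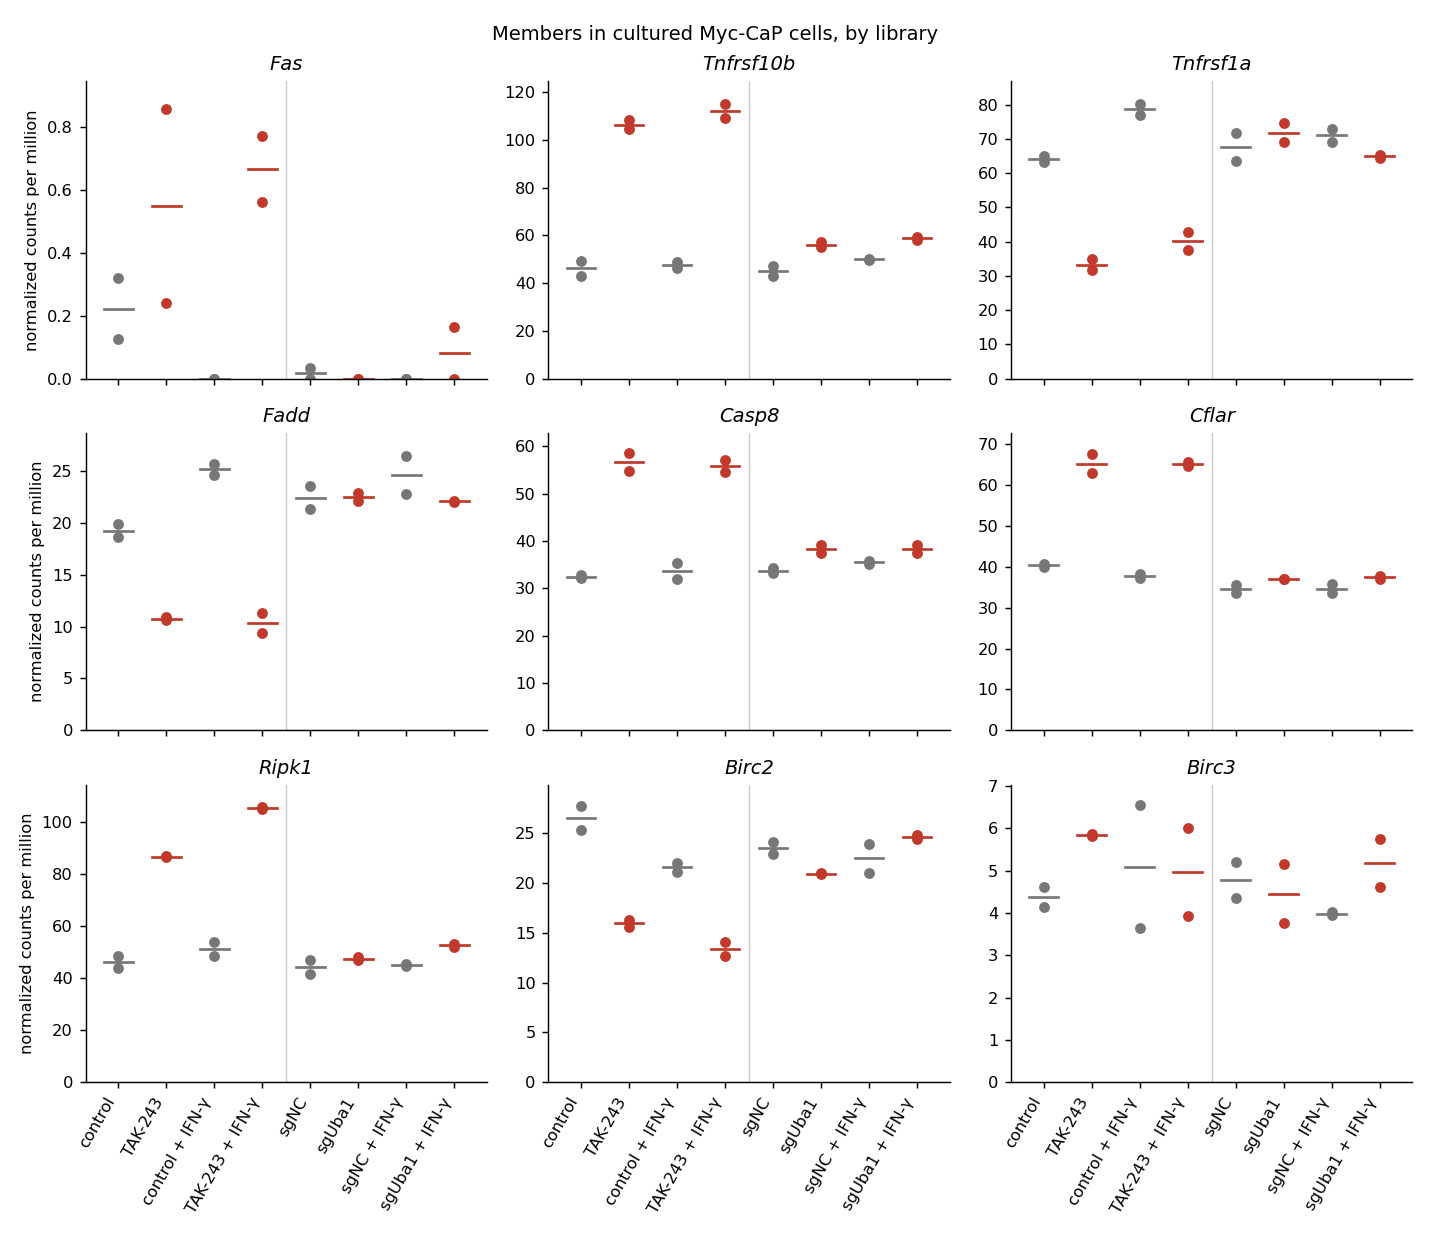
CPM (normalized counts, linear axis) of each of the 9 members in the 16 cell libraries, 1 panel a gene with its own axis; points are libraries, grey for control or sgNC and red for TAK-243 or sgUba1, and bars are means of n = 2. The libraries with TAK-243 stand above their controls for Tnfrsf10b, Casp8, Cflar and Ripk1 and below them for Tnfrsf1a, Fadd and Birc2, with and without IFN-γ.

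With IFN-γ on both sides, TAK-243 again changed these 7 members in the same directions. Fas was called as an eighth, with a limit from the filter on low counts that is given below. Background shares were 32% of 14551 genes higher and 36.2% lower, the median of the members 0.73 and that of all genes 0.02. This comparison used its own controls and treated libraries. Tnfrsf10b stood at 46.5 and 49.0 CPM in controls and 115 and 109 CPM with TAK-243 (log2 difference 1.23 ± 0.057, adjusted p = 8.59e-18, edgeR). Ripk1 stood at 48.5 and 53.9 CPM and then at 105 CPM in both libraries (1.04 ± 0.057, adjusted p = 4.21e-16, edgeR). Fadd had the largest fall among the members, from 24.6 and 25.7 CPM to 11.3 and 9.39 CPM (−1.29 ± 0.108, adjusted p = 9.25e-12, edgeR).

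The other called members kept close to their values without IFN-γ. Tnfrsf1a went from 80.3 and 76.9 CPM to 42.9 and 37.6 CPM (−0.97 ± 0.068). Casp8 went from 35.4 and 31.9 CPM to 57.2 and 54.7 CPM (0.73 ± 0.073), and Cflar from 38.2 and 37.4 CPM to 64.7 and 65.6 CPM (0.79 ± 0.065). Birc2 went from 21.1 and 22.0 CPM to 12.7 and 14.1 CPM (−0.69 ± 0.103, adjusted p = 8.47e-07, edgeR), a call that was lost on the log2(TPM + 1) scale, where its difference was −0.28 (adjusted p = 0.182, limma). Birc3 overlapped between the groups, at 6.55 and 3.63 CPM against 3.94 and 6.01 CPM.

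Fas had 0 counts in both IFN-γ controls and 11 and 9 counts (0.774 and 0.563 CPM) with TAK-243 and IFN-γ (adjusted p = 5.0e-04, edgeR). Against a floor of 3 counts per library it was at least 2.67-fold higher, which rests on few counts and covers counting error only. Controls of this experiment held at most 5 counts, so Fas passed the filter on low counts only through libraries with TAK-243. Its call therefore depends on the group in which it is high and is not independent support.

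IFN-γ alone called 3 of 9 members in the WT controls of the inhibitor experiment, a share near that of all genes (29%). Of the members 2 rose and 1 fell, beside 19.6% of genes higher and 9.39% lower. Tnfrsf1a rose from 65.0 and 63.2 to 80.3 and 76.9 CPM (log2 difference 0.29 ± 0.064, adjusted p = 6.96e-04, edgeR), and its window holds the GAS match printed above. Fadd rose from 18.6 and 19.9 to 24.6 and 25.7 CPM (0.39 ± 0.097, adjusted p = 0.00285, edgeR), with no match in its window. Birc2 fell from 25.3 and 27.7 to 21.1 and 22.0 CPM (−0.30 ± 0.092, adjusted p = 0.0156, edgeR). Ripk1, with 2 GAS matches, had a difference of 0.15 ± 0.063 that did not pass (adjusted p = 0.0697, edgeR). Fas, with 1 GAS match, went from 5 and 2 counts to 0 and 0, which did not pass in edgeR (adjusted p = 0.057) and was called lower in limma-voom (adjusted p = 0.0304). On the log2(TPM + 1) scale, where the median of all genes shifted from 0.04 to −0.14, none of the 3 calls held, and Casp8, not called in CPM (0.05), was called lower at −0.24 (adjusted p = 0.0449, limma). Without the IFN-γ control replicate 2, Tnfrsf1a alone of the 3 was called, and without the control replicate 2 or the IFN-γ control replicate 1, Birc2 was lost and Ripk1 was called. The listed IFN-γ targets responded in these libraries, with 8 of 9 tested called higher and a median of 4.04.

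In the sgNC cells, IFN-γ called 0 of 8 members in edgeR, limma-voom and DESeq2, where 3.88% of genes passed in either direction. An unadjusted p under 0.05 was reached by 1 member, Tnfrsf10b, beside 3572 of 15530 genes. Tnfrsf10b lay at 47.0 and 42.9 CPM without and 49.8 and 49.9 CPM with IFN-γ (log2 difference 0.15 ± 0.056, adjusted p = 0.138, edgeR). It was called without the sgNC replicate 1 (0.22, adjusted p = 0.0119, edgeR). Fas was not tested there, since it did not pass the filter on low counts. The change of the IFN-γ response with TAK-243 was called for 0 of 9 members in edgeR, limma-voom and DESeq2 (2.38% of genes called). An unadjusted p under 0.05 was reached by 2 members, Fas and Fadd, beside 2154 of 14551 genes. Fadd had a difference of responses of −0.45 ± 0.159 (adjusted p = 0.148, edgeR).

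Depletion of Uba1 in culture moved the members by less than the inhibitor did. In sgUba1 cells without IFN-γ, 2 of the 8 members tested rose and none fell, beside 16.2% of 15530 genes called higher and 13.6% lower. The median of the members was 0.09, beside 0.00 over all genes. Tnfrsf10b stood at 47.0 and 42.9 CPM in sgNC and 54.9 and 57.1 CPM in sgUba1 cells, with both depleted libraries above the controls. Its log2 difference was 0.32 ± 0.055 (adjusted p = 0.00126, edgeR), and the call held in all 16 alternatives run. Casp8 stood at 34.2 and 33.2 CPM against 37.6 and 39.2 CPM (0.19 ± 0.058, adjusted p = 0.0303, edgeR), a call lost in 10 of 16 alternatives, 7 of them fits without 1 library, and without the sgNC replicate 2 Tnfrsf1a (0.18) and Ripk1 (0.19) were called too. Birc2 stood at 24.1 and 22.9 CPM against 20.96 and 20.84 CPM, a difference of −0.17 ± 0.075 that did not pass (adjusted p = 0.122, edgeR). Tnfrsf1a at 63.5 and 71.6 against 74.6 and 69.0 CPM, Fadd at 23.5 and 21.3 against 22.1 and 22.9 CPM, and Ripk1 at 41.6 and 47.0 against 48.0 and 46.8 CPM had overlapping groups.

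With IFN-γ in both arms, Tnfrsf10b and Ripk1 rose in sgUba1 cells and no member fell, beside 17% of genes higher and 22.4% lower (median of the members 0.12, of all genes 0.01). Tnfrsf10b stood at 49.8 and 49.9 CPM in sgNC and 58.2 and 59.2 CPM in sgUba1 cells (log2 difference 0.24 ± 0.054, adjusted p = 0.00494, edgeR). Ripk1 stood at 45.2 and 44.8 CPM against 52.95 and 52.01 CPM (0.22 ± 0.061, adjusted p = 0.0125, edgeR). Neither call held on the log2(TPM + 1) scale, and that of Ripk1 was lost without either sgNC library with IFN-γ. Without either sgNC library lacking IFN-γ, which enters only the estimate of the spread, Tnfrsf1a was called lower (−0.13). Birc3 stood at 3.94 and 4.02 CPM against 5.76 and 4.60 CPM, a difference of 0.38 ± 0.175 that did not pass (adjusted p = 0.113, edgeR). The change of the IFN-γ response with depletion passed for 0 of 8 members in edgeR, limma-voom and DESeq2 (4.64% of genes called). Tnfrsf1a and Birc2 were the 2 members at an unadjusted p under 0.05, beside 3342 of 15530 genes. Without the sgNC replicate 2, Tnfrsf1a was called in that test (−0.31, adjusted p = 0.00800, edgeR).

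**Figure D3:**
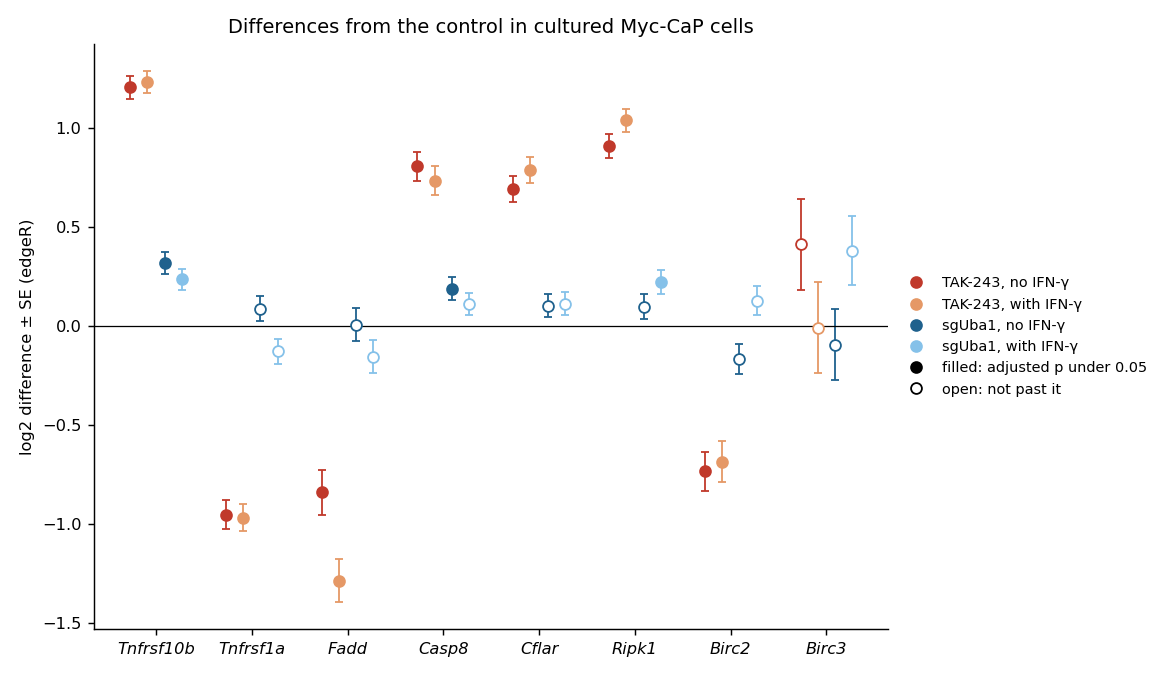
Log2 difference from the control ± SE (edgeR) of 8 members in cultured Myc-CaP cells, for TAK-243 (red, orange) and sgUba1 (blue, light blue), without and with IFN-γ; filled points passed an adjusted p under 0.05, and Fas is left out because of its low counts. The sgUba1 points lie between −0.17 and 0.38, and the filled TAK-243 points lie at 0.69 or higher or at −0.69 or lower.

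The difference between the inhibitor and the depletion was tested directly in cells without IFN-γ, in a comparison added after the data were seen. It reused the libraries of both single comparisons, and the experiments had their own controls. Of 8 members tested, 4 had a higher and 3 a lower log2 difference with TAK-243 than with sgUba1, beside 24.5% of 15296 genes higher and 29.4% lower. The difference of differences was 0.87 ± 0.102 for Tnfrsf10b (adjusted p = 6.44e-06, edgeR) and −1.05 ± 0.107 for Tnfrsf1a (adjusted p = 1.79e-06, edgeR). It was 0.80 ± 0.10 for Ripk1, 0.61 ± 0.099 for Casp8, 0.58 ± 0.097 for Cflar, −0.58 ± 0.125 for Birc2 and −0.86 ± 0.136 for Fadd, each with an adjusted p of at most 0.00142 in edgeR. Birc3 did not pass (0.50 ± 0.266, adjusted p = 0.133, edgeR), although it did without the sgUba1 replicate 2 (0.74, adjusted p = 0.0375, edgeR). On the log2(TPM + 1) scale Birc2 was not called (adjusted p = 0.0669, limma). Uba1 mRNA stood at 452 and 445 CPM in the controls and 594 and 565 CPM with TAK-243, which acts on the protein, and the loss of UBA1 activity was not measured in either arm.

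The wider pathway moved in both directions with the members in the inhibited cells. Of 66 listed ligands, receptors, adaptors, complex subunits, caspases and IAPs that are not members, 53 were tested without IFN-γ, and 27 rose and 17 fell, with a median of 0.17. Of all genes tested, 32.3% were called higher and 34% lower, with a median of 0.03. Tnfrsf23 (log2 difference 2.18), Tnfrsf22 (1.96) and Tnfrsf26 (1.87), mouse receptors related to TRAIL receptors but without a death domain, had the largest rises. They are close paralogs, so reads may be split among them. Cradd, a death-domain adaptor (−1.88), Tnfrsf21, death receptor 6 (−1.35), and Htra2, a mitochondrial IAP antagonist (−1.10), had the largest falls. With IFN-γ, 26 rose and 20 fell of 53, beside 32% of all genes higher and 36.2% lower. These were again led by Tnfrsf26 (2.69), Tnfrsf23 (2.12) and Tnfrsf22 (1.93), and by Cradd (−2.09), Tnfrsf21 (−1.43) and Htra2 (−1.41). Among subunits and regulators of the ubiquitin and kinase complexes that form at TNFR1, 10 of 17 rose without IFN-γ, including Tnfaip3, the NF-κB feedback enzyme A20, and 4 fell, including Sharpin and Rbck1.

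In sgUba1 cells, 8 of 51 pathway genes rose and 10 fell, and with IFN-γ 9 rose and 15 fell. Of all genes, 16.2% were called higher and 13.6% lower without IFN-γ, and 17% higher and 22.4% lower with it. Tnfsf10, which encodes TRAIL, the ligand of the Tnfrsf10b product, rose by 1.19 ± 0.264 without IFN-γ (adjusted p = 0.00548, edgeR) and by 1.80 ± 0.256 with it (adjusted p = 2.09e-04, edgeR). Its mean level was low, at 1.73 CPM in sgNC and 3.91 CPM in sgUba1 cells. Ikbke, an IKK-related kinase, rose in both (0.65 and 0.61), as did Tnfrsf1b, the other TNF receptor (0.45 and 0.27), and Bid, the caspase-8 substrate (0.37 and 0.28). Sharpin (−0.54 and −0.71), Tab1 (−0.42 and −0.72) and Map3k14 (−0.43 and −0.77), a kinase that cIAPs turn over, fell in both. With TAK-243, Tnfsf10 had a lower response than with sgUba1 (−1.91), as had Tnfrsf1b (−1.41) and Cradd (−2.16), and Tnfrsf23 (2.35), Tnfrsf22 (2.20) and Tnfrsf26 (1.62) a higher one. In that test 19 of 53 pathway genes were called higher and 14 lower, beside 24.5% of all genes higher and 29.4% lower.

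IFN-γ alone called 19.6% of all genes higher and 9.39% lower in the inhibitor experiment. Of 53 pathway genes, 14 were called higher and 6 lower, led by Rnf31 (0.50), Bak1 (0.47) and Rbck1 (0.46) and by Birc6 (−0.30), Tab3 (−0.25) and Xiap (−0.19). On the log2(TPM + 1) scale that split was 1 higher and 14 lower. In sgNC cells 3 of 51 rose, among them Traf2 (0.31) and Rbck1 (0.22), beside 3.03% of all genes higher. With RLE size factors, in DESeq2, on the log2(TPM + 1) scale and in a fit of only the groups compared, 0 were called higher. The response of 2 of 51 pathway genes to IFN-γ, Traf2 (−0.39) and Tnfrsf21 (−0.28), was lower in sgUba1 cells, a share near the 3.97% of all genes. Both lay close to the threshold (adjusted p = 0.0496 and 0.0461, edgeR). With RLE size factors, with at least 10 counts in every library and on the log2(TPM + 1) scale 0 were called lower, and in DESeq2 1 was. With TAK-243 the change of the IFN-γ response passed for 0 of 53 in edgeR and for 1 in DESeq2, whose share of all genes is not given here. At an unadjusted p under 0.05 there were 6 of the 53, beside 2154 of 14551 genes.

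Genes known to respond to factors that act on the members were counted beside them, and their part in the members' values was not tested. Of all genes, 32.3% were called higher and 34% lower with TAK-243, and 32% higher and 36.2% lower with TAK-243 and IFN-γ. In sgUba1 cells 16.2% were called higher and 13.6% lower, and with IFN-γ 17% higher and 22.4% lower. Of 8 listed NF-κB targets, 6 were tested and all 6 rose with TAK-243, both without (median 2.60) and with IFN-γ (median 2.60), while 2 rose and 1 fell in sgUba1 cells, and 2 rose and 2 fell there with IFN-γ. Of 10 listed p53 targets, 7 rose and 2 fell with TAK-243, 7 rose and 3 fell with TAK-243 and IFN-γ, and 3 rose and 2 fell in sgUba1 cells. Of 7 genes of the CHOP and ATF4 stress response, 3 rose and 2 fell with TAK-243, and 0 rose and 5 fell in sgUba1 cells. The IFN-γ targets showed 4 higher and 1 lower of 9 with TAK-243, 6 higher and 2 lower of 9 with TAK-243 and IFN-γ, and 3 higher of 8 in sgUba1 cells and 7 higher of 8 there with IFN-γ. In the 4 tumor comparisons 0 genes of these 4 lists were called in edgeR. Of all genes, an unadjusted p under 0.05 was reached by 2698 of 14853 in OE tumors and 3835 of 16202 in Myc-CaP tumors labelled sgUba1. It was reached by 2861 of 17539 in B16-BL6 and 2587 of 17299 in TAK-243 tumors. In OE tumors, however, 7 of 8 IFN-γ targets tested had an unadjusted p under 0.05, with a median of −1.20 for the 8, as had 4 p53 targets, 3 CHOP and ATF4 genes and 1 NF-κB target, and DESeq2 called 4 IFN-γ targets lower and 1 p53 target higher. In the Myc-CaP tumors labelled sgUba1, 4 of 9 IFN-γ targets had an unadjusted p under 0.05, with a median of 1.04 for the 9, as had 4 CHOP and ATF4 genes, 2 NF-κB targets and 1 p53 target. There DESeq2 called 2 IFN-γ targets higher, 1 NF-κB target higher and 1 lower, and 1 CHOP and ATF4 gene higher and 2 lower. In B16-BL6 tumors 5 of 10 p53 targets and 1 gene each of the IFN-γ and NF-κB lists had such a p, and DESeq2 called 2 p53 targets lower. In TAK-243 tumors 2 NF-κB targets and 1 IFN-γ target had one, and DESeq2 called 1 NF-κB target higher. The shares of all genes that DESeq2 called in these tumors are not given here, so its counts stand without a background.

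In tumors, 1 member passed in 1 of 4 comparisons. In B16-BL6 tumors, Tnfrsf10b fell with sgUba1, from 24.3, 28.3 and 24.5 CPM in the 3 sgNC tumors to 19.1, 17.0, 19.1 and 18.5 CPM. All 4 sgUba1 tumors lay below every control, and the log2 difference was −0.48 ± 0.088 (adjusted p = 0.0413, edgeR). The share of all genes that separated these tumors was not counted. Of 17539 genes, 0.268% were called higher and 0.456% lower, and the median was 0.04 for the members and 0.01 for all genes. The call was close to its threshold, and leaving out any tumor but sgUba1 replicate 4 ended it, with log2 differences of −0.52 to −0.40.

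Birc3 lay at 13.6, 11.9 and 14.1 CPM in the B16-BL6 sgNC tumors and 19.6, 15.6, 16.8 and 17.0 CPM in the sgUba1 tumors, with no overlap, but did not pass (0.39 ± 0.106, adjusted p = 0.148, edgeR). The TPM ratio of Birc3 to Birc2 lay at 0.460 to 0.573 in sgNC and 0.589 to 0.816 in sgUba1 tumors. The 3 leukocyte markers, all detected, summed to 9.57 to 18.4 CPM in sgNC and 19.2 to 21.5 CPM in sgUba1 tumors, and the 7 myeloid markers to 84.9 to 138 CPM and 139 to 173 CPM. Their part in these values was not tested. Fas lay at 0.265, 0.289 and 0.626 CPM in sgNC and 0.455, 0.269, 0.533 and 0.554 CPM in sgUba1 tumors, which overlap. Tnfrsf1a, at 96.8, 101 and 102 CPM and then 81.5, 90.2, 98.7 and 90.0 CPM, had a difference of −0.15 ± 0.071 (adjusted p = 0.324, edgeR).

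**Figure D4:**
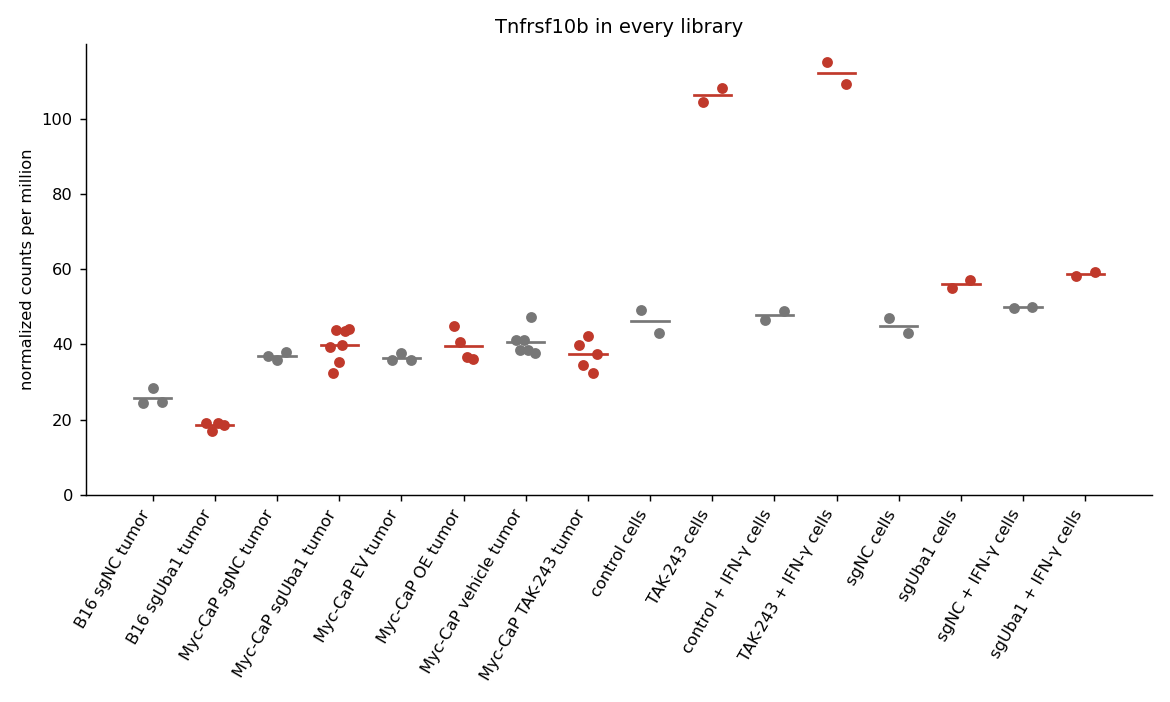
CPM (normalized counts, linear axis) of Tnfrsf10b in every library of the 16 groups; points are libraries, grey for controls and red for sgUba1, OE or TAK-243, bars are means, and normalization was done within each experiment. The 4 libraries with TAK-243 in culture sit at 105 to 115, the TAK-243 tumors at 32.5 to 42.4, within or just below the vehicle tumors, and the B16-BL6 sgUba1 tumors at 17.0 to 19.1, below their controls.

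In Myc-CaP tumors labelled sgUba1, 0 of 8 members passed in edgeR, beside 1.15% of 16202 genes higher and 1.89% lower. In limma-voom, in DESeq2 and without the 4 tumors with retained Uba1 mRNA, 0 passed. At an unadjusted p under 0.05 there was 1, Ripk1, beside 3835 of the 16202 genes. Ripk1 lay at 40.0, 48.6 and 40.7 CPM in sgNC and 34.0, 36.6 and 40.4 CPM (lowest, median and highest) in the 7 labelled sgUba1 tumors. Of these 7, 6 lay below all controls, and the log2 difference was −0.22 ± 0.096 (adjusted p = 0.199, edgeR). Tnfrsf10b stood at 37.0, 35.7 and 37.9 CPM and at 32.4, 39.9 and 44.2 CPM, a difference of 0.11 ± 0.115 (adjusted p = 0.593, edgeR). Birc3 stood at 10.1, 13.3 and 10.7 CPM and at 11.2, 12.6 and 15.8 CPM (0.23 ± 0.145, adjusted p = 0.367, edgeR). Leukocyte markers summed to 46.4 to 135 CPM in sgNC and 112 to 211 CPM in the labelled sgUba1 tumors, myeloid markers to 165 to 317 CPM and 301 to 485 CPM, and T and NK cell markers, of which up to 4 of 7 were at 3 counts or fewer in a tumor, to 9.97 to 11.7 CPM and 12.8 to 29.5 CPM. The 5 prostate epithelial markers, of which 1 or 2 were at 3 counts or fewer in each tumor, summed to 1653 to 2236 CPM and 2342 to 3136 CPM. The part of these cell types in the values was not tested. Fas, at 0.343 to 0.906 CPM in sgNC and 0.324 to 1.12 CPM in the labelled sgUba1 tumors, did not pass the filter.

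The difference between the models in their response to sgUba1 passed for 0 of 9 members in edgeR and limma-voom (1.52% of genes called). Tnfrsf10b was the 1 member at an unadjusted p under 0.05 (0.60 ± 0.148 higher in Myc-CaP, adjusted p = 0.0541, edgeR), beside 3211 of 17513 genes. Tnfrsf10b passed in DESeq2 (adjusted p = 0.00257) and without the tumor labelled sgUba1 replicate 2 or 3 (adjusted p = 0.0230 and 0.0466, edgeR). Without the 4 tumors with retained Uba1 mRNA it did not (0.54, adjusted p = 0.0848, edgeR). Of the pathway genes, 0 of 60 were called in B16-BL6 tumors in edgeR, and 2 in DESeq2. At an unadjusted p under 0.05 there were 14 of the 60, beside 2861 of 17539 genes. In the Myc-CaP tumors Bid rose (0.57), and Tnfrsf21 (−1.07), Tnfrsf22 (−1.35) and Tnfrsf23 (−1.83) fell, beside 1.15% of all genes higher and 1.89% lower. None of these 4 genes was called without the 4 tumors with retained Uba1 mRNA or on the log2(TPM + 1) scale. DESeq2 called 8 pathway genes higher and 4 lower. The share of all genes called in DESeq2 is not given here, so its counts in both tumor models stand without a background. Bid (0.66) and Tnfrsf22 (−1.41) were called in the difference between models, which reuses the same Myc-CaP libraries. Neither was called there without the 4 tumors with retained Uba1 mRNA, with no filter on low counts or on the log2(TPM + 1) scale. With RLE size factors Tnfrsf22 was not called.

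Overexpression of Uba1 called 0 of 8 members in edgeR, limma-voom and DESeq2, in a comparison with 0.0269% of 14853 genes called. At an unadjusted p under 0.05 there were 3, beside 2698 of the 14853 genes. All 3 separated the groups, and how many of all genes did so was not counted. Tnfrsf1a stood at 58.2, 56.7 and 52.4 CPM in EV tumors and 61.0, 69.2, 81.8 and 67.4 CPM in OE tumors (0.33 ± 0.113, adjusted p = 0.202, edgeR). Casp8 stood at 23.9, 25.6 and 24.9 CPM against 38.9, 27.3, 30.4 and 30.0 CPM (0.35 ± 0.136, adjusted p = 0.235, edgeR). Birc3 stood at 11.2, 12.2 and 12.6 CPM against 7.53, 9.36, 10.03 and 9.42 CPM, a difference of −0.40 ± 0.148 (adjusted p = 0.223, edgeR). The Birc3 to Birc2 ratio in TPM lay at 0.196 to 0.226 in EV and 0.140 to 0.194 in OE tumors. T and NK cell markers, of which 2 to 5 of 7 were at 3 counts or fewer in each tumor, summed to 15.9 to 22.0 CPM in EV and 5.16 to 10.5 CPM in OE tumors, and leukocyte markers to 104 to 124 CPM and 17.3 to 106 CPM. Skeletal muscle markers summed to 3.06 to 3.60 CPM in EV and 2.77 to 512 CPM in OE tumors. Their part in these values was not tested. Of 59 pathway genes, 0 passed in edgeR, with 9 at an unadjusted p under 0.05, and 2 did in DESeq2, whose share of all genes is not given here.

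TAK-243 given to tumor-bearing mice called 0 of 9 members in edgeR, limma-voom and DESeq2, with 0.145% of 17299 genes called. Tnfrsf10b, which had the largest called rise in treated cells without IFN-γ, stood at 37.7, 39.9 and 47.3 CPM (lowest, median and highest of 6) in vehicle tumors and 40.0, 34.5, 42.4, 32.5 and 37.5 CPM in treated tumors. These overlap, and the log2 difference was −0.12 ± 0.089 (adjusted p = 0.531, edgeR). The 2 members at an unadjusted p under 0.05 were Cflar and Fadd, beside 2587 of the 17299 genes. Cflar stood at 57.5, 66.1 and 69.7 CPM in vehicle and 67.0, 70.8, 78.8, 91.5 and 77.2 CPM in treated tumors, 4 of 5 above all controls (0.25 ± 0.087, adjusted p = 0.228, edgeR). Fadd stood at 8.54, 9.21 and 11.7 CPM against 8.003, 8.87, 7.17, 6.22 and 8.65 CPM, a difference of −0.30 ± 0.122 (adjusted p = 0.276, edgeR).

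Fas had the largest log2 difference in the TAK-243 tumors (0.94 ± 0.438, adjusted p = 0.338, edgeR), and 1 tumor decided it. The treated tumors stood at 0.539, 0.543, 0.738, 2.26 and 0.498 CPM and the vehicle tumors between 0.273 and 0.743 CPM, and without replicate 4, at 2.26 CPM, the difference was 0.29. Of 60 pathway genes, 0 were called in edgeR and 7 in DESeq2, whose share of all genes is not given here. At an unadjusted p under 0.05 there were 9 of the 60, beside 2587 of 17299 genes. Uba1 mRNA in the treated tumors (283 to 368 CPM) overlapped that in vehicle tumors (311 to 379 CPM). Prostate epithelial markers summed to 1688 to 2439 CPM in vehicle and 2646 to 3658 CPM in treated tumors, with no overlap, and leukocyte markers to 40.0 to 97.8 CPM and 52.6 to 125 CPM. Myeloid markers summed to 150 to 215 CPM (median 183) in vehicle and 154 to 298 CPM (median 283) in treated tumors. Of these 7 markers 1, Itgam, was called higher, beside 0.0867% of 17299 genes. Their part in these values was not tested. The tumor and the cell response to TAK-243 were not compared by a test, as dose, time and tissue differ.

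**Figure D5:**
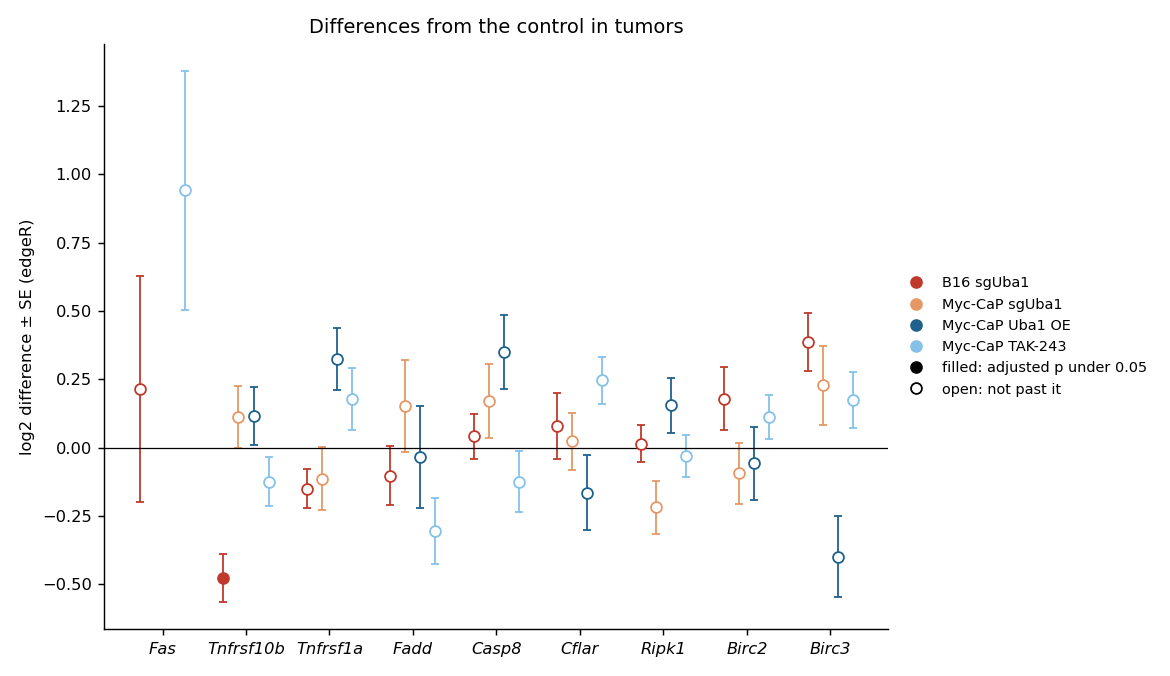
Log2 difference from the control ± SE (edgeR) of the members in the 4 tumor comparisons; filled points passed an adjusted p under 0.05, and Fas is drawn where it passed the filter on low counts. Tnfrsf10b in B16-BL6 sgUba1 tumors, at −0.48, is the single filled point.

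Across the 51 libraries, after the mean of each experiment was taken from log2 CPM, Pearson's r was computed between genes as a description, since the points share libraries, depth and normalization. Differences between groups of an experiment were left in, so the changes with TAK-243 in culture given above enter these values. Correlation within groups was not computed. Tnfrsf10b had r = 0.75 with Ripk1, r = 0.72 with Casp8 and r = −0.75 with Birc2, and Fadd had r = −0.85 with Cflar. The genes with the most similar pattern to Tnfrsf10b were Mtpn (r = 0.90) and Pvr (r = 0.89). They were Hectd3 (0.88) and Anpep (0.86) for Tnfrsf1a, Tdp1 (0.88) and Sars2 (0.87) for Fadd, Pea15a and Mast2 (both 0.86) for Casp8, and Helz2 (0.85) and Pdcd4 (0.84) for Cflar. For Ripk1 they were Plekhb2 (0.90) and Cnppd1 (0.89), for Birc2 Itpr1 (0.81) and Chd9 (0.80), for Birc3 Reg2 and Csf1r (both 0.61), and for Fas, where most counts are low, Lyrm1 (0.72) and Brwd1 (0.66). Csf1r is itself one of the myeloid markers.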

How the data were processed

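The authors deposited expected counts per gene, estimated with kallisto on mm10 according to the submitters' processing notes, and TPM per gene. The sample labels describe poly-A selection and the study's methods removal of ribosomal RNA. Expected counts were rounded to whole numbers. Groups were taken from the labels. Each tumor experiment was fitted alone and the 8 libraries of each cell experiment together, in R 4.3.3 with edgeR 4.0.16: filterByExpr by group, TMM factors, the quasi-likelihood test, and Benjamini-Hochberg adjustment over all genes tested at 0.05. The SE is the absolute log2 difference divided by the square root of F. Alternatives used RLE size factors, DESeq2 1.42.0, limma 3.58.1 (voom, and a trend on log2(TPM + 1)), no filter or at least 10 counts in every library, only the groups compared, the replicate number as a block, and each library left out. Depth ran from 8652097 to 38032395 counts, and floors of 3 counts cover counting error only. The calculations were tested on simulated data.

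The members, the lists (66 pathway genes, 4 lists of factor targets, cell type markers) and the comparisons were chosen with earlier results of these data known. Named are all members, up to 3 pathway genes per direction and comparison that passed and whose mean log2 CPM reached 1, and the 2 genes most correlated with each member where the mean log2 CPM reached 3; 1 gene that this rule names is not reported here. All 75 pairs of replicates differed by more than counting error (chi-square per degree of freedom 1.84 to 99.2).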

Additional observations from a re-analysis of the deposited data

Results flagged for a closer look

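Among 45 sets of a member and a group of 4 to 7 tumors, 3 held a tumor whose gap to the nearest other was large for the range of its group, and chance alone marks about 1 in 20 such groups. Fas stood at 2.26 CPM (65 counts) in the TAK-243 tumor replicate 4 and at 0.498 to 0.738 CPM in the other 4. Tnfrsf10b stood at 47.3 CPM in the vehicle tumor replicate 5 and at 37.7 to 41.3 CPM in the other 5. Birc2 stood at 35.0 CPM in the vehicle tumor replicate 1 and at 41.8 to 45.3 CPM in the other 5. The cause of these values was not tested. Of 17 pairs of effects set side by side for shifts in opposite directions, none had all samples of each group moving apart, and no test of a difference between responses passed for a member in edgeR except in the comparison of TAK-243 with sgUba1 in cells.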

How the results depend on the processing

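The number of members called with TAK-243 in cells was 7 in every alternative without IFN-γ and 7 or 8 with it, and it was 0 in every alternative for Myc-CaP labelled sgUba1 tumors, OE tumors, TAK-243 tumors and the change of the IFN-γ response with TAK-243. On the log2(TPM + 1) scale, the number called was 0 in B16-BL6 tumors (1 in the report), 1 for IFN-γ in the inhibitor controls (3), 1 in sgUba1 cells (2), 0 in sgUba1 cells with IFN-γ (2) and 6 for TAK-243 against sgUba1 (7, without Birc2). There, Casp8 reversed for IFN-γ (−0.24, adjusted p = 0.0449, limma), and pathway genes went from 14 higher and 6 lower to 1 higher and 14 lower. DESeq2 called 1 member in sgUba1 cells (2) and 1 in the difference between tumor models (0), the filter of 10 counts also called 1 there, and a fit of only the groups compared called 1 in sgUba1 cells. Leaving out 1 library gave 0 to 1 members in B16-BL6 tumors, 1 to 3 for IFN-γ in the inhibitor controls, 1 to 3 in sgUba1 cells, 1 to 3 in sgUba1 cells with IFN-γ, 0 to 1 for IFN-γ in sgNC cells, 0 to 1 for the change of that response with depletion, 0 to 1 for the difference between models, and 7 to 8 for TAK-243 against sgUba1. The causes were not tested, beyond the fewer samples in a fit that leaves some out.

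Replicate numbers were checked for pairing, and in no experiment did every same-numbered pair deviate together with a correlation over 0.1. Samples were therefore not treated as paired, although such correlations cannot show that they are unpaired, and the labels do not say. With a replicate block, 0 members were called in B16-BL6 tumors (Tnfrsf10b −0.49, adjusted p = 0.114, edgeR), and 4 for IFN-γ in the inhibitor controls, with Fas added (adjusted p = 0.0498, edgeR). It called 0 pathway genes in Myc-CaP tumors labelled sgUba1. No paired analysis was possible for the difference between models or for TAK-243 against sgUba1 because their groups come from different experiments.

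Over single members, 1796 values under alternatives kept their direction and side of the threshold, 88 changed sign with no call, 32 lost and 16 gained a call, and 1 reversed. Depth limited Fas, with at most 3 counts in 11 of 16 cell libraries, and 2 libraries a group limited the comparisons in cells.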
